A study of Mus musculus with 6 samples.

Results

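F-box proteins are the substrate-choosing subunits of SCF ubiquitin ligases, in which Skp1 ties the F-box protein to the scaffold Cul1 and the RING protein Rbx1. The members described here are the protein-coding genes whose symbols start with Fbxl, Fbxo or Fbxw and a number, without Fbxo32, Fbxo30, Fbxo21 and Fbxo31, which are known from muscle atrophy. By that rule 73 of the 47967 genes in the count table were members: 33 Fbxo genes, 18 Fbxl genes with leucine-rich repeats, and 22 Fbxw genes with WD40 repeats. RNA was sequenced from the gastrocnemius, a calf muscle of mostly fast fibres, of C57BL/6 males given as 20 to 24 weeks old. In the high phosphate (HP) group the mice ate chow with 2.0% inorganic and 2.3% total phosphate for 12 weeks, and in the normal phosphate (NP) group chow with 0.6% inorganic and 0.9% total phosphate for the same time. Magnesium (0.3%), calcium (1.9%), potassium (1.8%) and sodium (0.9%) were the same in both diets. Each diet had 3 libraries, with 21856006 to 27474251 gene counts. The labels do not say that the libraries came from separate mice, so p-values measure the spread between these samples.

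An F-box protein binds its target, often after the target has been phosphorylated, and the SCF complex then attaches ubiquitin to it. Attachment of the ubiquitin-like protein Nedd8 to the cullin switches the ligase on, the COP9 signalosome removes Nedd8, and Cand proteins exchange one F-box protein for another. In muscle, members of the family act on insulin signalling, on sarcomere proteins and on mitochondrial clearance. Counts of RNA show none of these activities, only how much transcript each library held.

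Of the 73 members, 54 passed the filter on low counts, 7 had some counts but too few to be tested, and 12 had a count of 0 in every library. On the high phosphate diet 15 of the 54 tested members rose and 9 fell (edgeR's quasi-likelihood test, Benjamini-Hochberg adjusted p under 0.05 over 15347 genes), and 30 were not called. The 2 largest rises in this fit were those of Fbxo40, a muscle-specific gene, and Fbxl4, a mitochondrial one. Both were over 2-fold here, but under 2-fold with library size alone (log2 fold changes of 0.93 and 0.88). The called share of the members was 44.4%, against 49.3% of all genes tested. For rises it was 27.8%, against 23.0% of all genes, and for falls 16.7%, against 26.3%, and these differences in share were not tested. The median log2 fold change of the tested members was 0.03, against -0.02 for all genes, and their median size of change was 0.36, against 0.45. Libraries of the 2 diets did not overlap in 22 members with every HP library above every NP library (40.7%, against 30.3% of all genes) and in 14 with every HP library below (25.9%, against 32.1%). Without HP replicate 3 the rises numbered 9, and without HP replicate 2 the falls numbered 5. Over all genes, 2875 of 16010 rose without HP replicate 3, and 3459 of 16017 fell without HP replicate 2. With all libraries 3528 rose and 4035 fell, of 15347 genes.

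Which way the smaller changes pointed depended on how libraries were scaled. TMM scaling sets a typical gene to no change, so each fold change is relative to a typical gene. With library size alone the median of all genes moved to -0.49, and 4 members were called higher and 26 lower (878 and 7886 of all genes, against 3528 and 4035 with TMM). On the authors' FPKM values, as log2(FPKM + 1), that median was -0.29, and 5 members were called higher and 19 lower. Fbxl4, Fbxo40, Fbxl17 and Fbxw5 were called higher, and all 9 falling members lower, under TMM, library size alone and both FPKM scales. The other 11 rises were lost with library size alone, and 7 of the 24 called members changed sign under at least 1 alternative.

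**Figure D1:**
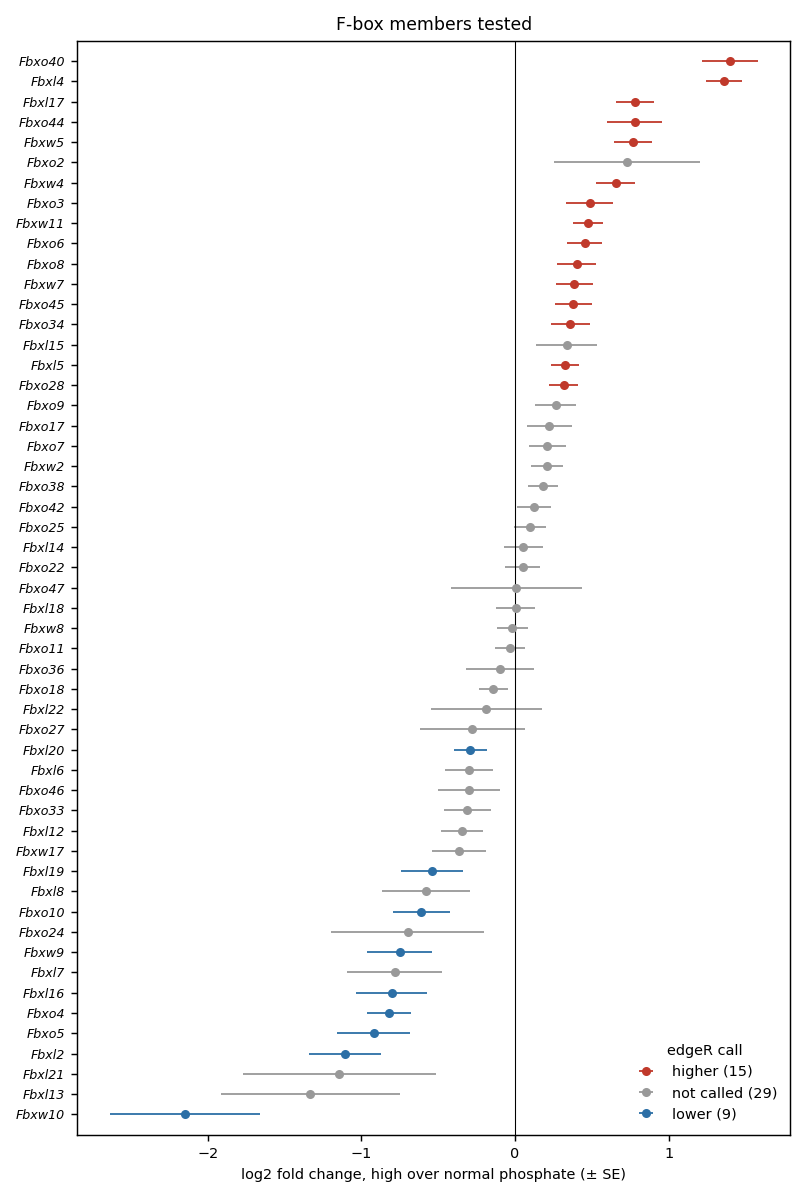
The log2 fold change of HP over NP (x axis, TMM counts, bars ± SE, n = 3 libraries per diet) is plotted for 53 of the 54 tested members. The 15 members called higher run up to 1.399 (Fbxo40), the 9 called lower run down to -2.15 (Fbxw10), and those not called lie between them or have wide bars; with library size alone only 4 of the 15 stayed called higher.

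Promoter windows were read for the members that rose and fell most clearly, so that the genes behind the largest changes can be seen as sequence. Each window is the 300 bases from 250 before to 50 after the RefSeq start (build GRCm38.p6), 5′ to 3′ on the gene's strand. Capitals mark matches to a searched motif on either strand. The GC box was searched as GGGCGG and an E-box as CACGTG. The E-box bound by myogenic factors was searched as CAGCTG and the box bound by NF-Y as CCAAT. The core of a cyclic AMP response element was searched as TGACG, the box bound by TBP as TATAAA and the FoxO site as GTAAACA, and no motif contains another. Fbxl4 lies at chr4:22357293-22357592 (plus strand), Fbxo40 at chr16:36990418-36990717 (minus), Fbxo4 at chr15:3979524-3979823 (minus) and Fbxl2 at chr9:114026702-114027001 (minus).
Fbxl4: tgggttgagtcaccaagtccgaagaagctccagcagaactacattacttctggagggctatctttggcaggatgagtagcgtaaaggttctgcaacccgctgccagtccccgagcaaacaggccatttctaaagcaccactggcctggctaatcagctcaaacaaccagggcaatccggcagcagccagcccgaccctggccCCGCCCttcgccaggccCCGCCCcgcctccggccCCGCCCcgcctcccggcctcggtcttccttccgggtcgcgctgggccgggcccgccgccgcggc
Fbxo40: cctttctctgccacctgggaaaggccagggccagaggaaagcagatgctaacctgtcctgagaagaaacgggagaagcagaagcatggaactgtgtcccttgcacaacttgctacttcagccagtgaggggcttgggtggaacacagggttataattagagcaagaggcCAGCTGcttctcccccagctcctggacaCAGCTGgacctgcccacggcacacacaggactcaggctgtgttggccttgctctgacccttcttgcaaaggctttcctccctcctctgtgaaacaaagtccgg
Fbxo4: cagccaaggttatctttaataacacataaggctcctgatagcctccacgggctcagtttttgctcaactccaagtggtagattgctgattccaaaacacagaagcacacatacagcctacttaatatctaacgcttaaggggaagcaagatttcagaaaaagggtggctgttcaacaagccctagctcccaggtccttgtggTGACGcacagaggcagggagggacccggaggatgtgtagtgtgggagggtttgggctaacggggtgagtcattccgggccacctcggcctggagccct
Fbxl2: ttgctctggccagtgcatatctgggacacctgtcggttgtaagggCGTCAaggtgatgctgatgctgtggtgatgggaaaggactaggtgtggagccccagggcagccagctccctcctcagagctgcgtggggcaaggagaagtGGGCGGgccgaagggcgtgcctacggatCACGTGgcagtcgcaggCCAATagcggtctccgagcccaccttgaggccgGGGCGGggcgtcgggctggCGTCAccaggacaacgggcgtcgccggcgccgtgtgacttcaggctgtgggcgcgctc

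The Fbxl4 window held 3 GC boxes and the Fbxo40 window 2 CAGCTG E-boxes. A second RefSeq window of Fbxo40, not printed, held 1 CAGCTG and 1 CCAAT box. The Fbxo4 window held 1 TGACG core, and the Fbxl2 window 2 GC boxes, 2 TGACG cores, a CACGTG E-box and a CCAAT box. RefSeq windows were found for 55 members (76 windows). They covered 11 members called higher, 9 called lower, 21 not called and 14 not tested. A member with several windows, such as Fbxo40, counts more than once below. CAGCTG was in 5 of 18 windows of members called higher, 1 of 11 of members called lower and 6 of 31 of members not called. It was in 13 of 16 windows of members not tested. Together this made 32.9% of all member windows, against 16.3% of all 32851 windows. GC boxes were in 33.3% of the windows of members called higher, 72.7% of those called lower and 71% of those not called, against 35.7% of all windows. CACGTG was in 0 of 18 windows of members called higher, 3 of 11 of members called lower and 2 of 31 of members not called (7.15% of all windows), and TGACG in 6, 6 and 9 of the same windows (20.8% of all windows). The FoxO letters GTAAACA were in 0 of the 76 member windows, and in 3.65% of all windows. These are matches of letters, not shown to be sites, and windows of one gene can overlap.

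Fbxo40, a muscle-specific F-box protein that marks the insulin receptor substrate Irs1 for degradation, was the most abundant member. It had 756, 754 and 667 CPM (gene counts over the TMM-scaled library size; replicates 1, 2 and 3, here and below) in HP libraries, against 295, 217 and 314 CPM in NP libraries. In TMM-scaled CPM every HP library was at more than 2 times the level of every NP library. The log2 fold change was 1.399 ± 0.18 (SE), with an adjusted p of 0.000711 by edgeR. It was 0.93 with library size alone and 0.92 on log2(FPKM + 1). On the length-scaled values the authors deposited Fbxo40 averaged 97.7 ± 7.12 FPKM on HP and 51.4 ± 6.71 FPKM on NP (SD, n = 3 each). Fbxo40 made up 32.8, 34.2 and 30.9% of all member counts in HP libraries, against 19.1, 15.8 and 19.8% in NP libraries. This share, which does not depend on the scaling between libraries, did not overlap (exact permutation test, two-sided, p = 0.1, the smallest that 3 against 3 libraries can give). The summed member counts were 2224 ± 73.7 CPM on HP and 1502 ± 116 CPM on NP (SD, n = 3 each, TMM). As a share of all gene counts, members took 0.1831, 0.1919 and 0.1904% in HP libraries, against 0.1704, 0.1760 and 0.1831% in NP libraries. These shares, taken without TMM, overlapped between the diets. Without Fbxo40 the TMM sums were 1498 ± 48.3 CPM on HP and 1227 ± 64.0 CPM on NP. Their direction depends on the scaling. With library size alone the median log2 fold changes of Fbxo, Fbxl and Fbxw genes were all below 0. Fbxo40 over Fbxo32, the atrophy gene atrogin-1, had a mean log2 count ratio of -0.27 ± 0.70 on HP and 0.68 ± 0.56 on NP, and the groups overlapped (exact p = 0.3).

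Both other members with a heart or muscle role were not called. Fbxl22, which binds the sarcomere proteins alpha-actinin and filamin C in heart, had 9.07, 2.96 and 4.62 CPM in HP libraries, against 5.17, 6.91 and 6.96 CPM in NP libraries. HP replicate 1 was above and the other two HP libraries were below every NP library. Its log2 fold change was -0.19 ± 0.36 (edgeR adjusted p = 0.688), and 0.13 without HP replicate 2. Of its exonic bases, 8.06% overlap genes on the opposite strand, chiefly Herc1. Fbxo25, which acts on heart transcription factors, had 15.99, 15.3 and 15.6 CPM in HP libraries, against 14.2, 14.8 and 14.9 CPM in NP libraries. Its log2 fold change was 0.10 ± 0.10 (edgeR adjusted p = 0.454) and -0.38 with library size alone. Every HP library was above every NP library, by a small margin.

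Markers of fibre type and of other cells differed between the diets in the same libraries. The calls and sums below are on TMM counts, and the marker lists were not counted under other scalings. Of 10 fast fibre markers 8 were higher and 0 lower (edgeR), and their summed level ran from 143321 to 186139 CPM on HP and from 51586 to 75320 CPM on NP. On FPKM the called Tnnt3 averaged 10023 on HP and 9646 on NP, with overlapping libraries, whereas Myh4 averaged 5979 on HP and 2577 on NP. Of 9 slow fibre markers 0 were higher and 6 lower (976 to 1543 CPM on HP, 2293 to 3185 CPM on NP). Of 8 fibroblast markers 8 were lower (2117 to 2405 CPM on HP, 4245 to 9064 CPM on NP), and of 8 white adipocyte markers 7 were lower and 1, Plin4, higher (974 to 1547 CPM on HP, 2596 to 3314 CPM on NP). Of 8 macrophage markers 7 were lower and 1, Cd163, higher (193 to 281 CPM on HP, 396 to 769 CPM on NP). All 7 B cell markers (1.05 to 2.24 CPM on HP, 10.5 to 74.3 CPM on NP) and all 7 T cell markers (0.831 to 2.09 CPM on HP, 10.7 to 38.3 CPM on NP) were lower. Of the other lists, 5 of 7 endothelial, 2 of 5 satellite cell, 1 of 6 pericyte and smooth muscle and 1 of 6 Schwann cell markers were lower, 0 of 5 erythroid markers were called, and of 2 tested germ cell markers 1, Dazl, was higher. No marker was at 0 in every library. The fast fibre markers, which define this muscle, were abundant in all 6 libraries, except that Tnnc2 had 46 to 152 counts while its deposited FPKM averaged 12771 on HP and 8549 on NP, a mismatch between the 2 tables whose cause was not tested. In whole muscle, fewer cells of a type and less RNA per cell cannot be told apart, and the part of these markers in the member changes was not tested.

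Fbxl4, a mitochondrial F-box protein that holds back the mitophagy receptors Bnip3 and Bnip3l, had the smallest p of all members. It had 63.9, 51.2 and 58.9 CPM in HP libraries, against 20.8, 22.6 and 24.3 CPM in NP libraries. In TMM-scaled CPM every HP library was at more than 2 times the level of every NP library. The log2 fold change was 1.36 ± 0.12 (edgeR adjusted p = 0.000191), 0.88 with library size alone and 0.87 on log2(FPKM + 1). The authors' FPKM values averaged 14.8 ± 1.24 on HP and 7.68 ± 1.05 on NP (SD, n = 3 each). Fbxl5, which senses iron through a hemerythrin domain and removes iron regulatory protein 2, had 74.8, 72.8 and 77.5 CPM in HP libraries, against 61.6, 56.5 and 61.6 CPM in NP libraries. Its rise was small (0.32 ± 0.09, edgeR adjusted p = 0.0182), it was not called without HP replicate 3 (adjusted p = 0.0638), and the value was -0.15 with library size alone and -0.44 on log2(FPKM + 1). The log2 ratio of Fbxl4 to Fbxl5 counts averaged -0.38 ± 0.14 on HP and -1.41 ± 0.13 on NP, a difference of 1.03 with no overlap (exact permutation p = 0.1, adjusted 0.2 over 8 pairs). Fbxo7, which works with parkin in mitochondrial clearance, had 15.5, 14.9 and 12.8 CPM in HP libraries, against 12.8, 12.1 and 12.5 CPM in NP libraries. Its log2 fold change of 0.21 ± 0.12 missed the threshold (edgeR adjusted p = 0.164), and with library size alone it stood at -0.27.

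**Figure D2:**
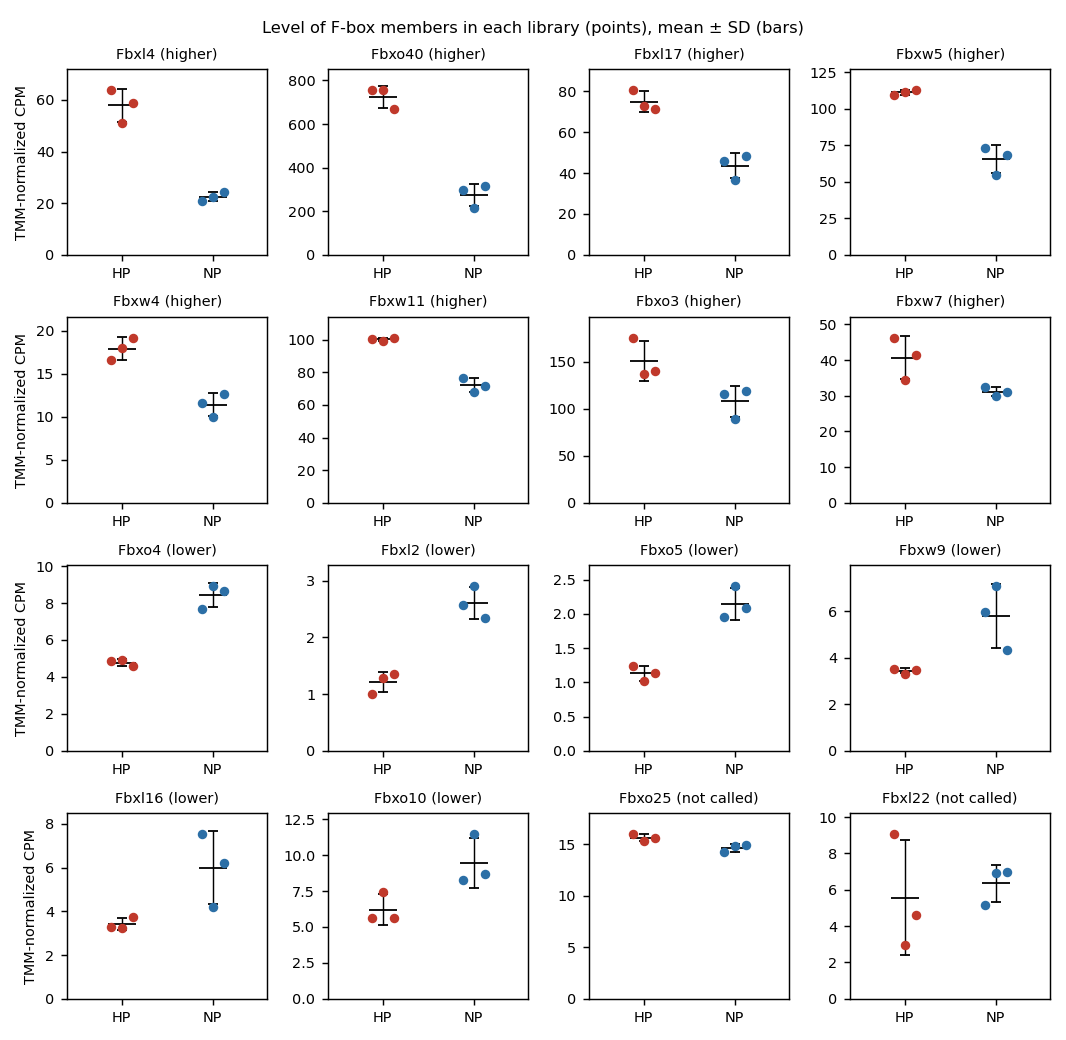
Each panel shows 1 member's level in every library (y axis, TMM-scaled CPM from 0) with HP left of NP; points are libraries, and the bars are mean ± SD (n = 3). The HP and NP points stand apart in every panel called higher or lower, whereas in the Fbxl22 panel 1 HP library is above and the other two are below the NP libraries.

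The glycoprotein-binding family is named for a domain that in several of its members recognises sugar chains on misfolded proteins. Fbxo6, Fbxo44 and Fbxo2 lie side by side on chromosome 4, from 148145716 to 148166424 (GRCm38, GENCODE M21). Fbxo44 had 9.16, 11.9 and 8.05 CPM in HP libraries, against 6.28, 4.995 and 5.67 CPM in NP libraries, and rose by 0.78 ± 0.18 (edgeR adjusted p = 0.00677). Fbxo6 had 40.7, 49.4 and 46.2 CPM in HP libraries, against 35.8, 30.0 and 33.7 CPM in NP libraries, and rose by 0.45 ± 0.11 (edgeR adjusted p = 0.00951). The groups did not overlap for either gene, yet neither call held with library size alone, where the values were 0.31 for Fbxo44 and -0.01 for Fbxo6. Fbxo2, best known from neurons, was at 17, 10 and 21 counts in HP libraries, against 5, 14 and 20 counts in NP libraries, and was not called (edgeR adjusted p = 0.226). Fbxo17 and Fbxo27, neighbours on chromosome 7, were not called either, with log2 fold changes of 0.22 ± 0.15 and -0.28 ± 0.34. The log2 ratio of Fbxo44 to Fbxo6 counts overlapped between the diets (difference 0.31, exact permutation p = 0.2).

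Of 8 tested cell cycle members 3 fell and 1 rose, beside 26.3% of all genes called lower and 23.0% called higher. Fbxo4, an F-box protein for cyclin D1, had 4.86, 4.89 and 4.57 CPM in HP libraries, against 7.70, 8.93 and 8.64 CPM in NP libraries. It fell by 0.82 on the log2 scale (SE 0.14, edgeR adjusted p = 0.00208), and its FPKM averaged 1.65 ± 0.115 on HP and 4.76 ± 0.721 on NP (SD, n = 3 each). Every HP library was below every NP library on both scales. Fbxl2, which targets cyclins D2 and D3, had 1.01, 1.27 and 1.35 CPM in HP libraries, against 2.57, 2.91 and 2.34 CPM in NP libraries. It fell by 1.11 (SE 0.24, edgeR adjusted p = 0.00471), and 11.2% of its exonic bases overlap genes on the opposite strand, chiefly Ubp1. Fbxo5, also called Emi1, an inhibitor of the anaphase-promoting complex, had 1.24, 1.02 and 1.14 CPM in HP libraries, against 1.95, 2.41 and 2.09 CPM in NP libraries. It fell by 0.92 (SE 0.24, edgeR adjusted p = 0.0108), and 8.71% of its 50-base words also occur in other genes, chiefly Gm16042. All 3 rested on low counts, from 20 to 106 in HP libraries, and the groups did not overlap.

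Of 6 proliferating cell markers, 4 were lower (edgeR), and their summed level was 25.1 to 32.4 CPM on HP and 37.0 to 57.7 CPM on NP. Their part in the falls of the cell cycle members was not tested. Fbxw7, which removes cyclin E, Myc, Notch and Jun, was higher, with 46.2, 34.3 and 41.4 CPM in HP libraries, against 32.3, 29.9 and 31.1 CPM in NP libraries. It rose by 0.39 ± 0.12 (edgeR adjusted p = 0.0256). The call was lost without HP replicate 1, HP replicate 3, NP replicate 2 or NP replicate 3 (adjusted p = 0.0527 to 0.0858), and the value was -0.09 with library size alone. Fbxl7, Fbxl8 and Fbxl12 were not called (log2 fold changes of -0.78, -0.58 and -0.35), nor was Fbxw8, the partner of the cullin Cul7 (-0.02). Fbxo43, the oocyte relative of Fbxo5, had 1 count in all 6 libraries together and was not tested.

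Of 14 tested members acting in signalling and transcription 4 rose and 3 fell, shares near the 23.0% and 26.3% of all genes. Fbxw5, which works with a Cul4 ligase on the mTOR inhibitor Tsc2, had 109.6, 112 and 113 CPM in HP libraries, against 73.5, 54.7 and 68.2 CPM in NP libraries. It rose by 0.77 ± 0.13 (edgeR adjusted p = 0.00155), and by 0.30 with library size alone, where it was still called. Fbxw2 was not called (0.21 ± 0.11), and the log2 ratio of Fbxw2 to Fbxw5 counts averaged -0.46 ± 0.02 on HP and 0.11 ± 0.10 on NP with no overlap (exact permutation p = 0.1, adjusted 0.2 over 8 pairs). Fbxw11, one of the paired beta-TrCP proteins that degrade beta-catenin and the NF-kappaB inhibitor, had 100.4, 99.3 and 101 CPM in HP libraries, against 76.6, 68.1 and 71.6 CPM in NP libraries. It rose by 0.48 ± 0.10 (edgeR adjusted p = 0.00411), but with library size alone the value was 0.00 (adjusted p = 0.978).

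Fbxo3, which targets Fbxl2, had 175, 137 and 140 CPM in HP libraries, against 115, 88.6 and 119 CPM in NP libraries. It rose by 0.48 ± 0.15 (edgeR adjusted p = 0.0267) and by 0.39 on log2(FPKM + 1) (limma adjusted p = 0.0448), was not called without HP replicate 1 (0.38, adjusted p = 0.0952), and stood at 0.01 with library size alone. Fbxo45, a synaptic F-box protein, had 39.1, 32.9 and 36.1 CPM in HP libraries, against 27.5, 24.5 and 31.3 CPM in NP libraries. It rose by 0.38 ± 0.12 (edgeR adjusted p = 0.0267), lost its call without HP replicate 1, HP replicate 3, NP replicate 1 or NP replicate 2 (0.29 to 0.39, adjusted p = 0.0558 to 0.0841), and stood at -0.10 with library size alone. Fbxo10, which targets the survival protein Bcl2, had 5.59, 7.44 and 5.61 CPM in HP libraries, against 8.28, 11.5 and 8.68 CPM in NP libraries. It fell by 0.61 (SE 0.18, edgeR adjusted p = 0.0218), and the call was lost without HP replicate 1, HP replicate 3 or NP replicate 2 (adjusted p = 0.0639 to 0.0831).

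Fbxl20, which controls the synaptic protein Rim1, had 39.0, 41.7 and 47.1 CPM in HP libraries, against 48.5, 53.0 and 54.8 CPM in NP libraries. Its fall of 0.29 (SE 0.11) was close to the threshold (edgeR adjusted p = 0.0465) and was not called without HP replicate 1, HP replicate 2, NP replicate 2 or NP replicate 3 (adjusted p = 0.0748 to 0.167). Fbxl19, which carries a CpG-binding zinc finger, had 4.58, 4.18 and 4.36 CPM in HP libraries, against 5.29, 8.15 and 5.64 CPM in NP libraries. It fell by 0.54 (SE 0.20, edgeR adjusted p = 0.0487), by 0.32 without NP replicate 2, and was called in 1 of the 6 fits that left out a library, the one without NP replicate 1 (others 0.0517 to 0.153). Fbxl14, Fbxl15, Fbxo11, Fbxo22, Fbxo38 and Fbxo42, which act on Snai1, Smurf1, Bcl6, histone demethylase Kdm4a, the receptor PD-1 and p53, were not called, with log2 fold changes from -0.03 to 0.34.

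The other called members have less settled roles. Fbxl17, a quality control protein for BTB-domain complexes, had 80.6, 72.6 and 71.2 CPM in HP libraries, against 45.8, 36.6 and 48.4 CPM in NP libraries. It rose by 0.78 ± 0.12 (edgeR adjusted p = 0.00141) and by 0.31 with library size alone, still called. Fbxw4, also named dactylin, had 16.5, 18.04 and 19.2 CPM in HP libraries, against 11.6, 9.96 and 12.6 CPM in NP libraries. It rose by 0.65 ± 0.13 (edgeR adjusted p = 0.00322) and was not called with library size alone (0.19). Fbxw4 shares 21.4% of its exonic bases with genes on the opposite strand, chiefly Gm17018. Fbxo28 had 31.3, 34.0 and 34.5 CPM in HP libraries, against 25.9, 27.2 and 26.98 CPM in NP libraries, a rise of 0.32 ± 0.09 (edgeR adjusted p = 0.0203). Its call was lost without HP replicate 2, HP replicate 3, NP replicate 1 or NP replicate 3 (adjusted p = 0.0546 to 0.0664), and its value was -0.16 with library size alone. In all of these members the HP libraries were above the NP libraries. Fbxo8, which has a Sec7 domain of the kind that acts on Arf proteins, averaged 46.9 ± 3.50 CPM on HP and 35.5 ± 5.38 CPM on NP (SD, n = 3 each; 0.40 ± 0.13, edgeR adjusted p = 0.0272). Without HP replicate 1, HP replicate 3 or NP replicate 2 it was not called (adjusted p = 0.0551 to 0.0903), and with library size alone it stood at -0.06. Fbxo34 averaged 15.5 ± 1.66 CPM on HP and 12.1 ± 1.002 CPM on NP (0.36 ± 0.13, edgeR adjusted p = 0.0407). It shares 16.7% of its 50-base words with other genes, chiefly Gm7224. It was not called without HP replicate 1, HP replicate 3, NP replicate 1 or NP replicate 3 (adjusted p = 0.0645 to 0.141), and stood at -0.13 with library size alone.

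The last 3 falls were of scarce transcripts. Fbxl16, which does not assemble an active SCF ligase, had 3.30, 3.26 and 3.74 CPM in HP libraries, against 7.55, 4.22 and 6.22 CPM in NP libraries. It fell by 0.80 (SE 0.23, edgeR adjusted p = 0.0177), and without HP replicate 1, HP replicate 2 or NP replicate 1 it was not called (adjusted p = 0.0587 to 0.0603). Fbxw9 had 3.53, 3.31 and 3.48 CPM in HP libraries, against 5.98, 7.09 and 4.32 CPM in NP libraries. It fell by 0.75 (SE 0.21, edgeR adjusted p = 0.016), with adjusted p of 0.0534 without HP replicate 2 and 0.0502 without HP replicate 3. The HP libraries of both genes were alike and the NP libraries spread more widely above them. Fbxw10 had 8, 3 and 2 counts in HP libraries, against 18, 38 and 23 counts in NP libraries, and fell by 2.15 (SE 0.49, edgeR adjusted p = 0.00625). It was under 1 CPM on average in both diets, and 5.89% of its exonic bases overlap genes on the same strand, chiefly Trim16.

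**Figure D3:**
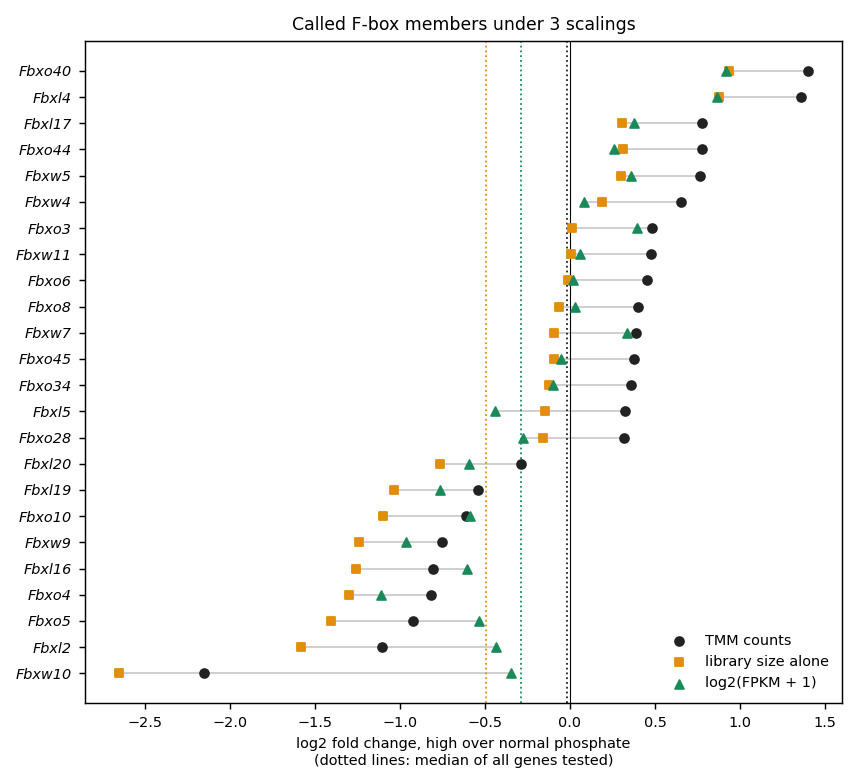
The log2 fold change of HP over NP (x axis) is shown for the 24 called members under TMM counts (circles), library size alone (squares) and log2(FPKM + 1) (triangles), with dotted lines at the median of all genes tested (-0.02, -0.49 and -0.29). Fbxo40 and Fbxl4 lie between 0.87 and 1.399 under all 3 scalings, the 9 falling members stay below 0, and members between Fbxo3 and Fbxo28 sit near 0 or below it under at least 1 scaling.

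The 30 members not called had 14 positive and 16 negative log2 fold changes, of which 12 were smaller than 0.2 in size. Others among them were Fbxo9 (0.26), Fbxo47 (0.01), Fbxl18 (0.00), Fbxo36 (-0.10), the DNA helicase Fbxo18 (-0.14), Fbxl6 (-0.30), Fbxo46 (-0.30), Fbxo33 (-0.31), Fbxw17 (-0.37), Fbxo24 (-0.70) and Fbxl13 (-1.33). Fbxl13 and Fbxo24 had mean levels of 0.411 and 0.317 CPM on HP and 1.07 and 0.511 CPM on NP, with SEs of 0.58 and 0.50, and the groups overlapped for both. Fbxl13 had 18, 6 and 2 counts in HP libraries, against 24, 45 and 19 counts in NP libraries, and it was called lower without HP replicate 1 (-2.34, edgeR adjusted p = 0.0206) and with library size alone (-1.85, adjusted p = 0.0251). Fbxl21 was near the floor of detection, with 7, 6 and 0 counts in HP libraries, against 11, 13 and 15 counts in NP libraries, and was not called (edgeR adjusted p = 0.155). By family, 8 of 27 tested Fbxo genes rose and 3 fell, 3 of 18 Fbxl genes rose and 4 fell, and 4 of 9 Fbxw genes rose and 2 fell, beside 23.0% of all genes called higher and 26.3% called lower. The median log2 fold change was 0.12 for Fbxo, -0.29 for Fbxl and 0.21 for Fbxw genes, and with library size alone it was -0.36, -0.77 and -0.26 for the same families, so only the sign of the Fbxl median held. Some members share exonic bases with genes on the opposite strand. The shares were 37.1% for Fbxl12 (chiefly Ubl5), 33.4% for Fbxw8 (chiefly Gm9754), 25.6% for Fbxl15 (chiefly Cuedc2) and 15.4% for Fbxo22 (chiefly Nrg4). Since the strand setting of the counting is not given in the sources used here, reads there cannot be told apart.

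Rising members had a median of 11.3 FPKM, and falling members a median of 1.08 FPKM. Of the 15 that rose, 13 had a mean of at least 5 FPKM, whereas all 9 that fell were under 5 FPKM. Among the members not called, 10 of 30 were at 5 FPKM or more. The levels of rising and falling genes over all genes tested were not compared, so this split cannot be called particular to the members. After Fbxo40 the most abundant members were Fbxw5, at 33.4 ± 1.68 FPKM on HP and 25.8 ± 1.68 FPKM on NP, and Fbxo3, at 28.7 ± 3.78 FPKM on HP and 21.5 ± 1.43 FPKM on NP (SD, n = 3 each). Fbxw2, Fbxo6 and Fbxo9 were also abundant, with means between 20.9 and 27.8 FPKM in both diets, and on HP the SDs of these 3 overlapped.

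**Figure D4:**
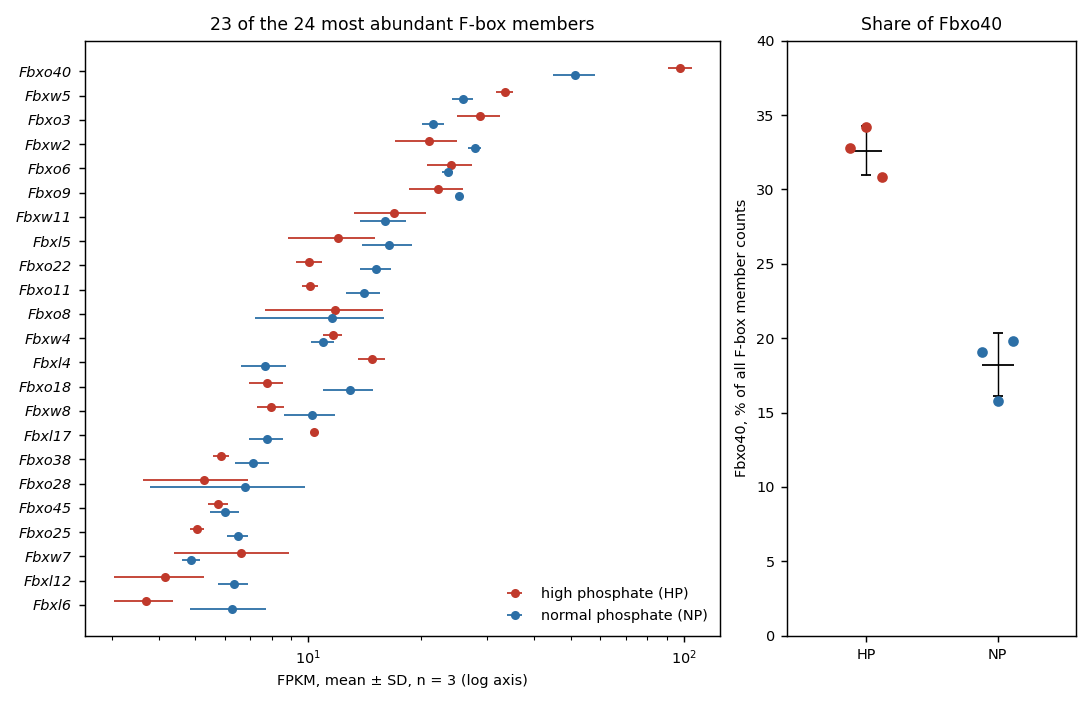
Left, FPKM (log x axis, mean ± SD, n = 3) of 23 of the 24 most abundant members, HP above NP in each row; right, the share of all member counts taken by Fbxo40 in each library (y axis, percent, points with mean ± SD). Fbxo40 leads at 97.7 FPKM on HP and 51.4 FPKM on NP, and its share is 30.9 to 34.2% on HP and 15.8 to 19.8% on NP.

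Members at or near 0 were mostly one genomic cluster. In the mouse the Fbxw genes have multiplied on chromosome 9, and Fbxw13 to Fbxw16, Fbxw18 to Fbxw22, Fbxw24 to Fbxw26 and Fbxw28 lie together between 109139447 and 109746089 (GRCm38, GENCODE M21). Of these, Fbxw13 had 2 counts and Fbxw19 had 1 count over the 6 libraries, and the others had 0 in every library. Fbxw28 and Fbxw14 share 61.5% and 58.9% of their 50-base words with other genes, chiefly with each other. The other copies share 5.77 to 12.4%. Whether reads that match several copies were left out of the counts was not tested. CAGCTG was in 13 of 16 promoter windows of members not tested, which include these copies. Fbxw17 was listed with these genes, but lies on chromosome 13 and shares 0% of its 50-base words with other genes. Fbxw17 was tested, at a mean of 6.06 CPM on HP and 7.81 CPM on NP, and was not called. Outside the cluster, Fbxo15 had 0 counts, and Fbxo16, Fbxo39, Fbxo41, Fbxo43 and Fbxo48 had some counts but too few to be tested.

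The partners of the F-box proteins were counted in lists of the pathway's genes, beside the 23.0% of all genes called higher and 26.3% called lower. Of 11 tested SCF core subunits and ubiquitin-conjugating partners, 6 rose and 1 fell, with a median log2 fold change of 0.59. The core itself was not called: Skp1a stood at 0.32 (edgeR adjusted p = 0.0824), Cul1 at 0.32 (adjusted p = 0.0519) and Rbx1 at 0.10 (adjusted p = 0.55), and all 3 were below 0 with library size alone. Cul1 was called without NP replicate 2 and Skp1a without NP replicate 1, at log2 fold changes of 0.35 and 0.41 (adjusted p = 0.041 and 0.0422). Cdc34, the enzyme that extends ubiquitin chains on SCF targets, averaged 326 ± 8.10 CPM on HP and 160 ± 29.6 CPM on NP (SD, n = 3 each; 1.03 ± 0.16, edgeR adjusted p = 0.0013). Arih1, which adds the first ubiquitin with neddylated cullins, averaged 205 ± 14.4 CPM on HP and 124 ± 11.2 CPM on NP (0.72 ± 0.13, adjusted p = 0.00197). Ube2g1 and Ube2r2, further chain-building enzymes, rose by 0.76 and 0.68. Cul7, the scaffold that takes Fbxw8, averaged 9.28 ± 0.72 CPM on HP and 22.3 ± 7.14 CPM on NP (-1.26 ± 0.21, adjusted p = 0.00193). With library size alone this list had 3 higher and 3 lower, beside 878 and 7886 of all 15347 genes. With log2(FPKM + 1) it had 1 higher and 3 lower, beside 718 and 5655 of all genes.

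Of 24 tested genes of neddylation, exchange and the COP9 signalosome, 13 rose and 1 fell, with a median of 0.34. Cand2, the Cand protein found mainly in muscle, averaged 175 ± 38.6 CPM on HP and 69.4 ± 10.3 CPM on NP (1.34 ± 0.18, edgeR adjusted p = 0.00075). Cand1, its widely expressed relative, averaged 25.9 ± 1.25 CPM on HP and 35.7 ± 5.25 CPM on NP (-0.46 ± 0.12, adjusted p = 0.012), and was not called without HP replicate 3 (adjusted p = 0.0548). Dcun1d2, which helps attach Nedd8, rose by 0.89, and the signalosome subunits Cops3 and Cops8 rose by 0.69 and 0.71. Without HP replicate 3 the list had 8 higher and 0 lower, beside 2875 and 3399 of 16010 genes. With library size alone it had 2 higher and 6 lower, beside 878 and 7886 of 15347 genes.

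**Figure D5:**
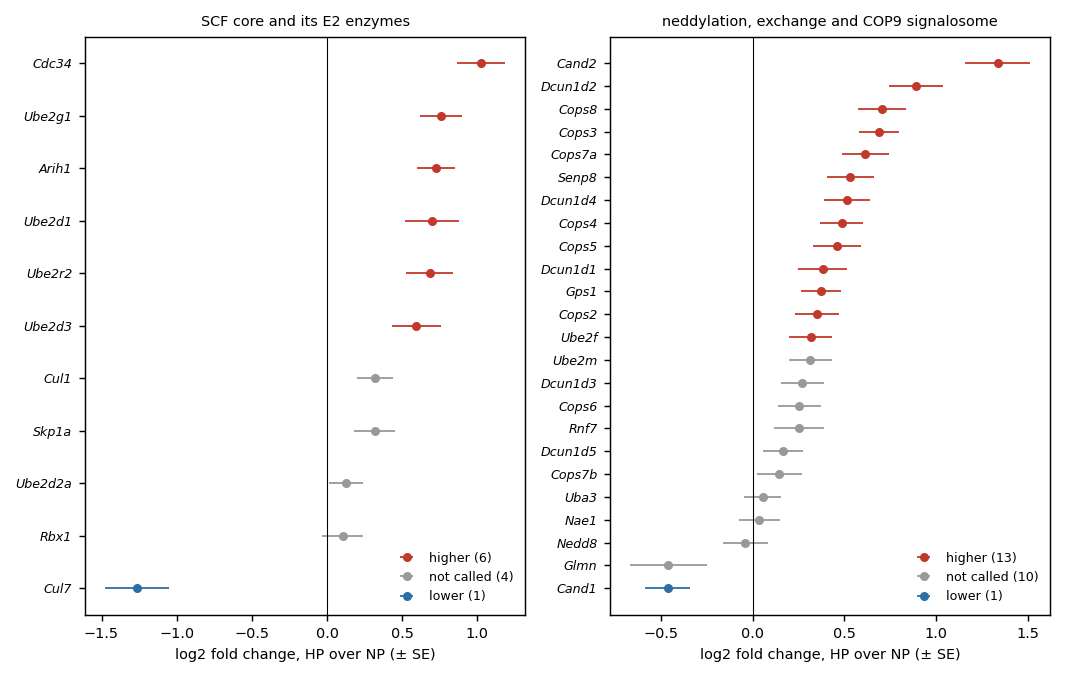
Log2 fold changes of HP over NP (x axis, TMM counts, ± SE, n = 3 libraries per diet) are plotted for 11 SCF core and ubiquitin-conjugating genes (left) and 24 neddylation, exchange and COP9 signalosome genes (right), with the called direction in colour. Cdc34 (1.03) and Cand2 (1.34) are at the top and Cul7 (-1.26) and Cand1 (-0.46) at the bottom. Skp1a, Cul1 and Rbx1 are not called. With library size alone the left list had 3 higher and 3 lower and the right list 2 higher and 6 lower. All 15347 genes then gave 878 higher and 7886 lower.

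F-box proteins that carry other names gave 2 rises and 1 fall among 8 tested, beside 23.0% of all genes called higher and 26.3% called lower. Kdm2b, a histone demethylase with an F-box, rose by 0.59 ± 0.18 (edgeR adjusted p = 0.023). Btrc, the partner of Fbxw11 in the beta-TrCP pair, rose by 0.28 ± 0.09 (adjusted p = 0.0353). Skp2, which removes the cell cycle inhibitor Cdkn1b, fell by 0.86 (SE 0.26, adjusted p = 0.0225). Kdm2b was not called without HP replicate 1, HP replicate 3 or NP replicate 1 (adjusted p = 0.0613 to 0.0865) or with library size alone (0.11). Btrc was called in 1 of the 6 fits that left out a library, the one without NP replicate 2 (others 0.0532 to 0.0872), and stood at -0.20 with library size alone. Skp2 was not called without HP replicate 2, HP replicate 3, NP replicate 2 or NP replicate 3 (adjusted p = 0.0526 to 0.0813). The log2 ratio of Fbxw11 to Btrc counts averaged 1.70 ± 0.07 on HP and 1.496 ± 0.13 on NP, with no overlap (exact permutation p = 0.1, adjusted 0.2 over 8 pairs). For Fbxl2 over Fbxl20, which are close relatives, the averages were -5.14 ± 0.12 on HP and -4.33 ± 0.19 on NP, also with no overlap (same p), but on FPKM values the difference was -0.13 in place of -0.82. For Fbxo10 over Fbxo11 the groups overlapped (difference -0.57, exact permutation p = 0.2), as they did for Fbxo2 over Fbxo6 (0.43, p = 0.6).

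Transcripts of 29 textbook targets of these ligases were also tested, although an F-box protein acts on the target's protein and not on its RNA. Of these, 11 rose and 5 fell, with a median of 0.16, beside 23.0% of all genes called higher and 26.3% called lower. The kinase Aurka rose by 2.03 ± 0.21 (edgeR adjusted p = 0.000372), the clock gene Per1 by 1.51 ± 0.20 (adjusted p = 0.000809) and the sarcomere protein Flnc by 1.10 ± 0.18 (adjusted p = 0.00141). Tsc2, the target of Fbxw5, rose by 0.56 ± 0.10 (adjusted p = 0.0024), and by 0.09 with library size alone, where it was not called. Ccnd2 fell by 1.23 (SE 0.16, adjusted p = 0.000662), Notch1 by 0.68 (SE 0.14, adjusted p = 0.00382), Snai1 by 1.14 (SE 0.24, adjusted p = 0.00458) and Ccnd3 by 0.52 (SE 0.15, adjusted p = 0.0183). Ccnd2 and Ccnd3 are both known targets of Fbxl2, which also fell, and whether these changes are linked was not tested. Without HP replicate 1 or HP replicate 3 the falls numbered 3, and Ccnd3 was not called in either (edgeR adjusted p = 0.0713 and 0.077). With library size alone 4 rose and 10 fell, beside 878 and 7886 of 15347 genes.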

How the data were processed

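Per the file headers, one deposited table holds raw whole-number counts for Ensembl gene IDs in the 6 libraries and a second holds FPKM values. The submitters' processing notes list the tools DESeq2 1.6.3, featureCounts 1.4.6, HISAT2 2.0.1 and Trim Galore 0.4.1 and the builds GRCm38 and mm10, without roles or order. Which annotation release and strand setting were used, and what made the FPKM values, is not stated in the labels or headers.

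Libraries were grouped by the diet in the labels. Counts were tested with edgeR 4.0.16 (R 4.3.3; TMM, filterByExpr, robust quasi-likelihood, no covariate), adjusted over 15347 genes, with calls at an adjusted p under 0.05. The SE is the log2 fold change divided by the square root of F, which is approximate. At 1 CPM the smallest library held 21.9 counts, and such counting error limits low members. Alternatives were other scalings, count filters, a replicate block, each library left out, DESeq2 1.42.0, limma-voom (limma 3.58.1), limma-trend on FPKM with pseudocounts of 1 and 0.1, and other thresholds. Fold changes on FPKM are on the log2(FPKM + pseudocount) scale and understate changes of low genes.

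The members, lists and pairs were chosen with earlier results of these data known. Values per library are given for up to 10 called members in each direction by smallest p with a mean of at least 1 CPM, plus further members with known muscle, iron or signalling roles; the remaining called members, and Fbxo2 among members of low level, were given values after these were seen. One tested member that was not called stays in every fit and count and is not reported here by name. From each pathway list up to 4 called genes per direction were named. Promoter windows came from RefSeq (GRCm38.p6) and gene models from GENCODE M21. No library was a copy of another: between libraries of one diet, chi-square over its degrees of freedom was 18.1 to 58.0. The edgeR fit was also run on simulated data in which few genes changed, with rises and falls nearly equal in number. That run cannot check the scaling between libraries, since far more genes were called in these data.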

Additional observations from a re-analysis of the deposited data

How the results depend on the processing

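The members called higher and lower numbered 15 and 9 with TMM, 4 and 26 with library size alone, 5 and 19 on log2(FPKM + 1), 5 and 20 on log2(FPKM + 0.1), and 2 and 2 with a change of at least 2-fold. Leaving out each library in turn gave 9 to 14 higher and 5 to 8 lower. Over all genes these fits gave 2782 to 3502 higher and 3370 to 4075 lower. All genes gave 3528 and 4035 with TMM, 878 and 7886 with library size alone, 718 and 5655 on log2(FPKM + 1), and 742 and 5977 on log2(FPKM + 0.1). The median of the members was -0.45 with library size alone, -0.28 on log2(FPKM + 1), -0.45 on log2(FPKM + 0.1) and -0.019 to 0.13 with each library left out. In 16 alternatives with a fit of their own, Fbxl4, Fbxo40, Fbxl17 and Fbxw5 were called higher in all, and Fbxo4, Fbxl2, Fbxo5 and Fbxw10 were called lower in all, except that Fbxw10 is absent under the filter of 1 CPM. TMM without the 50 most abundant genes, an alternative added after the data were seen, left 15 higher and 9 lower.

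Signs turned as follows with library size alone, log2(FPKM + 1) and log2(FPKM + 0.1), in that order: Fbxl5 -0.15, -0.44 and -0.47; Fbxo25 -0.38, -0.31 and -0.36; Fbxo28 -0.16, -0.28 and -0.32; Fbxo34 -0.13, -0.10 and -0.12; Fbxo45 -0.10, -0.053 and -0.061. The same held for Btrc at -0.20, -0.13 and -0.16, for Cul1 at -0.16, -0.14 and -0.14, for Rbx1 at -0.36, -0.33 and -0.34, and for Skp1a at -0.15, -0.10 and -0.10. With library size alone Fbxo6 stood at -0.012, Fbxo7 at -0.27, Fbxo8 at -0.065 and Fbxw7 at -0.093. Further members not called turned below 0 with library size alone and log2(FPKM + 1). Among them were Fbxw2 (-0.26 and -0.41), Fbxo9 (-0.21 and -0.18), Fbxo38 (-0.30 and -0.24) and Fbxo42 (-0.36 and -0.24). Fbxl14 (-0.43 and -0.32), Fbxo22 (-0.43 and -0.55), Fbxl15, Fbxo17 and Fbxl18 did so too. The cause was not tested. With each library left out, Fbxl22 ranged from -0.73 to 0.13, Rbx1 from -0.029 to 0.23 and the log2 ratio of Fbxo2 to Fbxo6 from -0.18 to 0.83.

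With the replicate number as a block, 14 members were called higher and 8 lower (3407 and 3921 of all genes). Deviations of same-numbered libraries correlated at -0.02, 0.02 and 0.02, so the numbers were not taken to pair the samples. Depth limits members under about 1 CPM, where 1 library can set the fold change.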
